A study of Mus musculus with 2 samples.

Results

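Ins1, Ins2, Iapp, Slc30a8, Ero1lb and Sytl4 are the 2 mouse insulin genes and 4 genes whose proteins fold insulin's precursor or share its secretory granule. They were taken by name from the count tables of 2 single-cell libraries, and all 6 of 6 were found in both, among 25507 gene symbols. The libraries hold cells from the pancreas of E14.5 embryos of wild-type mice, labelled as islet cells. They had been flow-sorted for low and high fluorescence of Ngn3eGFP, a green reporter of the gene Neurog3, and encapsulated in inDrop droplets, which give each cell a barcode and mark every captured RNA molecule with its own identifier (UMI). All cells are wild type, so there is 1 group with 2 replicate libraries. Whether these stem from separate embryos, and which cell passed which gate, is not in the labels. The p-values here speak for these 2 samples only, and differences between them may be technical. Each gene's spread is drawn toward one shared over genes. An SE can thus be far smaller than the gap between single-library folds, and a small p-value does not mean that the libraries gave the same fold.

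Insulin is made in the beta cells of the pancreatic islet. Its precursor enters the endoplasmic reticulum (ER), where disulfide bonds are formed as it folds, and is then sorted into granules, cut to insulin and C-peptide, and stored with zinc until the granules fuse with the cell surface. Mice carry a pair of insulin genes: Ins2 is the counterpart of the single human gene, and Ins1 is a retroposed copy of it. Iapp encodes amylin, a peptide hormone stored and released together with insulin. Ero1lb encodes an ER oxidase that helps to form disulfide bonds in proinsulin, and newer annotations call it Ero1b. Slc30a8 encodes ZnT8, the transporter that loads zinc into insulin granules. Sytl4 encodes granuphilin, a Rab27a-binding protein that docks granules at the plasma membrane.

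The promoters of Ins1 and Iapp are shown because both genes were high in the same cells, as described below. Each sequence runs 5′ to 3′ from 250 bases before the gene's start to 50 bases after it, from the RefSeq promoter table on GRCm38.p6. Capitals mark 3 short motifs found on either strand: TAAT, a core bound by homeobox factors such as Pdx1 (also written as ATTA, its reverse), CATCTG, an E box of the kind bound by Neurod1 (reverse CAGATG), and TCAGC, part of the site of Maf factors (reverse GCTGA). The Ins1 promoter is chr19:52264047-52264346 on the plus strand, and the Iapp promoter is chr6:142298175-142298474 on the plus strand.
Ins1: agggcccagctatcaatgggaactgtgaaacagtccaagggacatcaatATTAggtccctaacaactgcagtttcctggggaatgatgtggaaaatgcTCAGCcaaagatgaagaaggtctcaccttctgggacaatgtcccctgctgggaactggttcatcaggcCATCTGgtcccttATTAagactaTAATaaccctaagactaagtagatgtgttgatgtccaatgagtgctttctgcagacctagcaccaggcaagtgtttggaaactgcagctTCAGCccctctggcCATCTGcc
Iapp: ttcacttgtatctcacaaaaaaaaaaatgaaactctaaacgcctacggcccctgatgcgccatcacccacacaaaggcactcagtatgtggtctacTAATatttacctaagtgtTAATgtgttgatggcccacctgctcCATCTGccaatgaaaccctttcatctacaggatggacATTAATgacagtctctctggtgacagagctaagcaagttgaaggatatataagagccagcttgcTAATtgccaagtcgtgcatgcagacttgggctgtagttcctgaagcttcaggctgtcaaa
The Ins1 window holds 3 matches to TAAT, 2 to CATCTG and 2 to TCAGC. The Iapp window holds 5 to TAAT, of which 1 pair overlaps in ATTAAT, 1 to CATCTG and 0 to TCAGC. The windows of Ero1lb (chromosome 13) and Sytl4 (chromosome X) hold 0 matches to any of the 3. Among 32851 RefSeq mouse promoters of the same length, 58.0% hold a TAAT, 54.2% a TCAGC and 17.15% a CATCTG. At least 2 CATCTG, as in Ins1, are found in 1.83% of them, and all 3 motifs in 6.03%. A match is a run of letters, not a measured binding site.

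In GENCODE M21 on GRCm38, all 6 are protein-coding genes. Ins1 lies on chromosome 19 (52264297 to 52265476, plus strand) and Ins2 on chromosome 7 (142678656 to 142743381, minus strand), where the annotated span includes a long upstream transcript. Iapp is on chromosome 6 (142298423 to 142303961, plus strand), Slc30a8 on chromosome 15 (52295553 to 52335798, plus strand), Ero1lb on chromosome 13 (12565874 to 12611396, plus strand) and Sytl4 on chromosome X (133936385 to 133981812, minus strand). None of their exons overlaps an exon of another gene. The insulin genes are near-identical in part: 50 of the 1033 stretches of 30 bases in the Ins1 transcript (4.84%) also occur in an Ins2 transcript. In the last 200 bases, the end next to which this kind of library is read, 0 of 171 do. How reads that match both were counted is not given in the sources used here, so the split between the pair is somewhat uncertain.

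Cells were grouped by raw UMIs of 6 marker genes that are not members. Gcg cells, with at least 5 UMIs of the glucagon gene, numbered 30 in library 1 and 56 in library 2. Chgb cells, with at least 5 UMIs of the granule protein gene chromogranin B and fewer than 5 of Gcg, numbered 104 and 171. Cells with both Neurog3 and Chgb at their thresholds numbered 8 and 15. Neurog3 cells, with at least 3 UMIs of the factor that starts endocrine differentiation, numbered 116 and 183. Spp1 cells, with at least 5 UMIs of the trunk and duct gene osteopontin, numbered 90 and 190. Cells with at least 5 UMIs of the acinar gene Cpa1 or 2 of the macrophage gene Csf1r numbered 16 and 121, and served to judge free RNA, which droplets take up from the suspension. Each group also had to lie below other thresholds. Gcg, Chgb, Neurog3 and Spp1 cells lay below those of Cpa1 and Csf1r, and the last 3 also below that of Gcg. Chgb cells lay below the Neurog3 threshold, Neurog3 cells below that of Chgb, and Spp1 cells below both. Cpa1 cells lay below all other thresholds except that of Spp1, and Csf1r cells below all others. Neurog3 cells could hold Spp1 at any level. No group was given to 485 of the 1585 cells kept. The libraries held 1910588 UMIs in 535 barcodes and 3425983 UMIs in 1100 barcodes, with medians of 3244 and 2828.5 UMIs per barcode, and 3 barcodes were found in both. Levels are CPM: the UMIs of a gene per 1000000 UMIs of the group's cells in a library. UMIs count molecules near the RNA's end, so they need no correction for length.

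**Figure D1:**
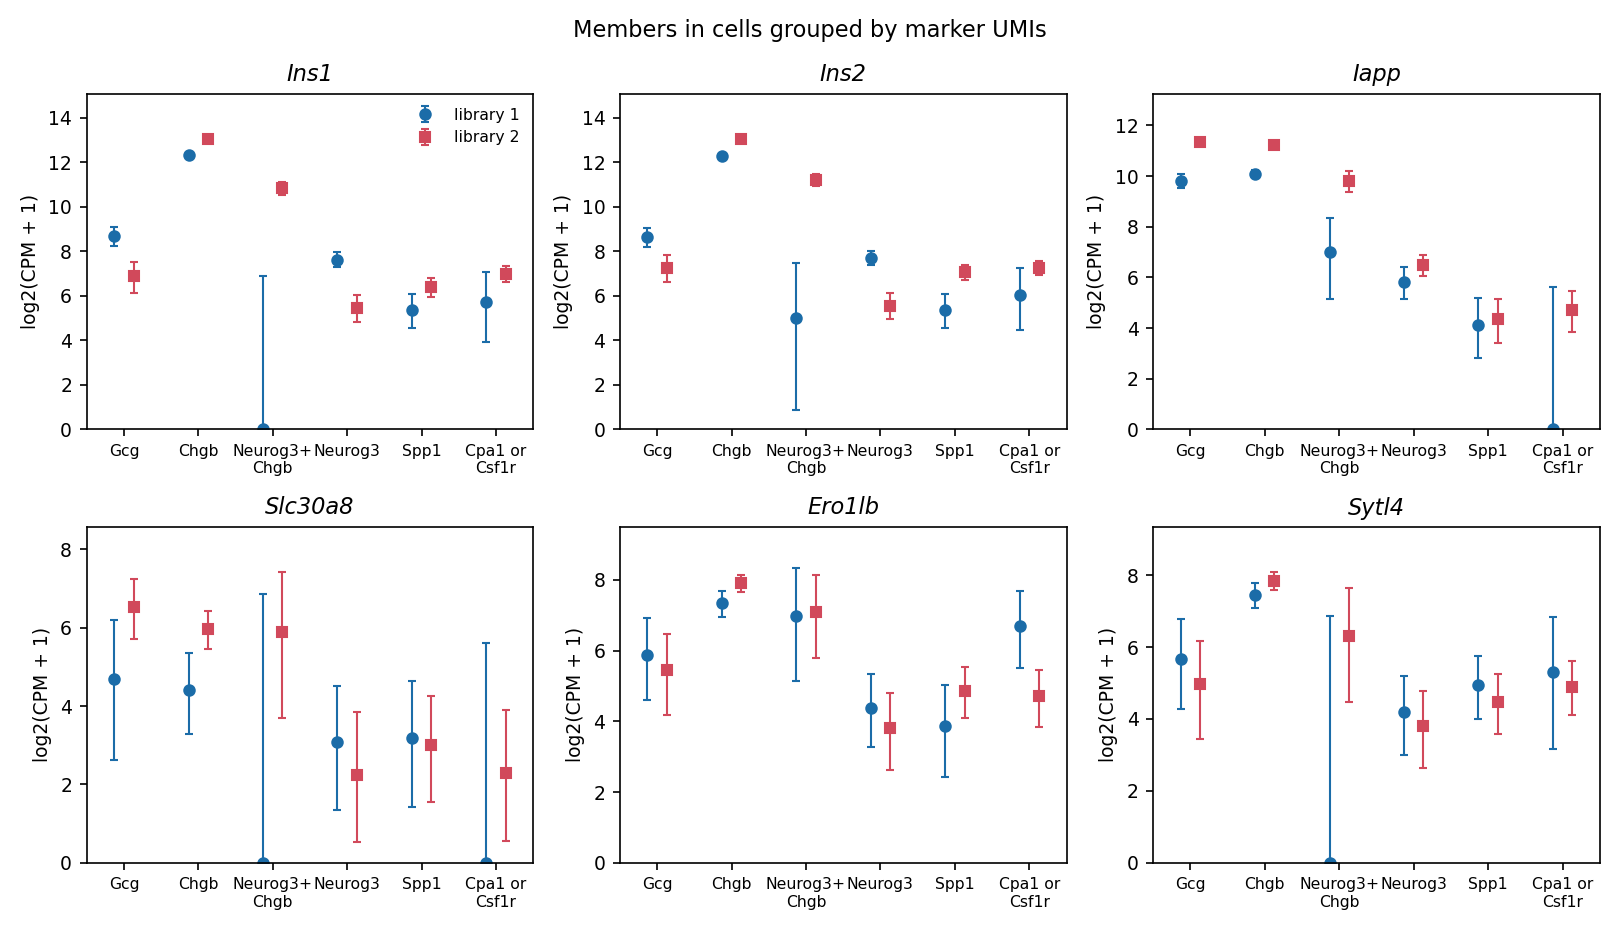
Level of each of the 6 genes, as log2(CPM + 1), in Gcg, Chgb, Neurog3 and Chgb, Neurog3, Spp1, and Cpa1 or Csf1r cells. Points are the 2 libraries, and bars are 95% exact Poisson intervals, which cover counting error only. Both insulin genes stand highest in Chgb cells, while Iapp and Slc30a8 are about as high in Gcg cells.

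Among the marker groups, both insulin genes were concentrated in Chgb cells. The cells in no group also held much insulin, with Ins1 at 3126 and 3153 CPM and Ins2 at 3234 and 3273 CPM. Ins1 stood at 5046 and 8302 CPM in the Chgb cells of libraries 1 and 2, and at 405 and 116 CPM in Gcg cells, 197 and 42.5 CPM in Neurog3 cells, 40.6 and 82.5 CPM in Spp1 cells and 51.8 and 125 CPM in Cpa1 or Csf1r cells. Ins2 followed it closely, with 4973 and 8633 CPM in Chgb cells, 397 and 152 CPM in Gcg cells, 209 and 46.2 CPM in Neurog3 cells, 40.6 and 133 CPM in Spp1 cells and 64.7 and 152 CPM in Cpa1 or Csf1r cells. Chgb cells were the highest in both libraries, and among the other 4 groups the ranges overlapped except those of Gcg and Spp1 cells. In those groups single cells carried much of the signal. One Neurog3 cell of library 1 held 111 of that group's 163 insulin UMIs (Ins1 and Ins2 together), 1 Gcg cell of library 1 held 73 of 97, and 1 Spp1 cell of library 2 held 61 of 123. Without the cells that held at least 20 insulin UMIs, insulin stood at 209 and 268 CPM in Gcg cells, 131 and 88.7 CPM in Neurog3 cells, 81.3 and 110 CPM in Spp1 cells and 116 and 41.0 CPM in Cpa1 or Csf1r cells. The ranges of Neurog3 and Spp1 cells overlapped that of the cells used to judge free RNA. Gcg cells stood above all 3 in both libraries.

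Iapp was nearly as high in Gcg cells as in Chgb cells. It stood at 901 and 2602 CPM in Gcg cells, 1095 and 2371 CPM in Chgb cells, 54.8 and 88.7 CPM in Neurog3 cells, 16.3 and 19.3 CPM in Spp1 cells and 0 and 25.05 CPM in Cpa1 or Csf1r cells. Library 2 was higher than library 1 in each of these groups, and by more than 2-fold in Gcg and Chgb cells. In library 1 a single Gcg cell held 42 of that group's 109 Iapp UMIs. An Iapp UMI was found in 50% and 66.1% of Gcg cells and in 44.2% and 50.3% of Chgb cells, against 0% and 6.61% of Cpa1 or Csf1r cells. Median depths were 3972.5 and 2717 UMIs in Gcg cells, 3559.5 and 3406 in Chgb cells, and 3978.5 and 3812 in Cpa1 or Csf1r cells. With 0 of 16 cells, library 1 allows a share of up to 20.6% in Cpa1 or Csf1r cells by the exact binomial interval. After every cell was thinned to 2000 UMIs, the shares were 50% and 61.9% in Gcg cells, 39.8% and 52.1% in Chgb cells, and 0% and 5.05% in Cpa1 or Csf1r cells.

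Slc30a8 was low in every group, and the scarcest of the 6 in Chgb cells. It stood at 24.8 and 91.2 CPM in Gcg cells and 20.3 and 60.97 CPM in Chgb cells, on 3 and 15 UMIs and on 8 and 36 UMIs. In Neurog3 cells it stood at 7.47 and 3.70 CPM, in Spp1 cells at 8.13 and 7.02 CPM, and in Cpa1 or Csf1r cells at 0 and 3.85 CPM, each on at most 4 UMIs. Its ranges in Gcg and Chgb cells overlapped, and both lay above those of Neurog3, Spp1, and Cpa1 or Csf1r cells. The few cells with both Neurog3 and Chgb had 0 and 58.2 CPM, on 0 and 3 UMIs, the 3 in a single cell.

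Across the marker groups, the oxidase gene Ero1lb and the docking gene Sytl4 behaved like insulin rather than like Iapp. Over single Chgb cells Iapp followed insulin more closely than either, as given below. Ero1lb stood at 57.9 and 42.6 CPM in Gcg cells, 160 and 237 CPM in Chgb cells, 19.9 and 12.9 CPM in Neurog3 cells, 13.5 and 28.1 CPM in Spp1 cells and 104 and 25.05 CPM in Cpa1 or Csf1r cells, where 5 of the 8 UMIs of library 1 lay in 1 cell. Sytl4 stood at 49.6 and 30.4 CPM in Gcg cells, 173 and 229 CPM in Chgb cells, 17.4 and 12.9 CPM in Neurog3 cells, 29.8 and 21.1 CPM in Spp1 cells and 38.8 and 28.9 CPM in Cpa1 or Csf1r cells. For both genes the Chgb cells of either library lay above every other group. In each library Neurog3 and Spp1 cells lay below Cpa1 or Csf1r cells for Sytl4.

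Chgb cells were set against Neurog3 cells to compare cells that hold RNA of a granule protein with endocrine progenitors. All 6 of 6 were higher in Chgb cells, where 6.78% of 10420 genes tested were. Slc30a8 passed the count filter only through Chgb and Gcg cells, where it was high, so it adds no separate support to that count. Ins1 was 58.6-fold higher in Chgb cells than in Neurog3 cells (log2 fold change 5.87 ± 0.21 SE; edgeR adjusted p = 2.69e-51), and Ins2 54.3-fold higher (5.76 ± 0.21; edgeR adjusted p = 1.21e-49). The folds differed widely between libraries, at 4.67 in library 1 and 7.58 in library 2 for Ins1 on the log2 scale, and library 1 is where 1 Neurog3 cell held most of the insulin. For Ins2 they were 4.57 and 7.51. Without the cells outside the Chgb group that held at least 20 insulin UMIs, a choice made after the data had been seen, Ins1 was higher by 7.13 and Ins2 by 6.73 (edgeR adjusted p = 9.67e-97 and 2.56e-93). Iapp was 23.4-fold higher (4.55 ± 0.18; edgeR adjusted p = 2.11e-47), with 4.30 and 4.72 in the single libraries. Ero1lb was higher by 3.58 ± 0.37 (edgeR adjusted p = 2.16e-14) and Sytl4 by 3.69 ± 0.37 (edgeR adjusted p = 5.15e-15) on the log2 scale. Slc30a8 was higher by 2.84 ± 0.67 (edgeR adjusted p = 0.000719), with 1.33 in library 1 and 3.72 in library 2, and with DESeq2 it did not pass (adjusted p = 0.0638). Fewer cells of a type and less RNA per cell cannot be told apart in such sums.

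Neurog3 cells were set against Spp1 cells to ask whether any member is already higher at the Neurog3 stage. Of the 6, 1 was higher in Neurog3 cells, where 5.03% of 10420 genes tested were. Iapp held 22 and 48 UMIs in Neurog3 cells against 6 and 11 in Spp1 cells, a log2 fold change of 2.06 ± 0.31 (edgeR adjusted p = 1.91e-07), with 1.69 and 2.14 in the single libraries. Those UMIs came from 12 Neurog3 cells in each library, 10.3% and 6.56% of them, and 1 cell of library 2 held 24 of the 48. An Iapp UMI was found in 6.67% and 4.74% of Spp1 cells and in 0% and 6.61% of Cpa1 or Csf1r cells, so in library 2 the shares were alike and the difference lay in the UMIs per cell. Ins1 differed by 0.76 ± 0.28 (edgeR adjusted p = 0.0638) and Ins2 by 0.37 ± 0.26 (edgeR adjusted p = 0.504), and both had opposite signs in the 2 libraries. Slc30a8, Ero1lb and Sytl4 did not pass, with log2 fold changes of -0.43, -0.44 and -0.71. With lower marker thresholds, which gave 23 and 135 Cpa1 or Csf1r cells, Neurog3 cells could be set against these: 0 of 6 members passed with edgeR, where 5.53% of 11222 genes were higher, and 1 of 6, Iapp, had an unadjusted p below 0.05 (log2 fold change 0.90 ± 0.35; unadjusted p = 0.0140; edgeR adjusted p = 0.0883).

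The few cells with both Neurog3 and Chgb split by library. Insulin stood at 1 UMI over 8 such cells in library 1 and at 216 UMIs over 15 in library 2, of which 211 lay in 2 cells. Iapp had 4 and 46 UMIs there. With the Chgb threshold lowered to 1 UMI, a choice made after the data had been seen, the group grew to 23 and 33 cells and could be tested against Neurog3 cells without Chgb. Ins1 was then higher by 4.35 ± 0.29 (edgeR adjusted p = 1.73e-15), Ins2 by 3.93 ± 0.28 (edgeR adjusted p = 7.54e-15) and Iapp by 1.94 ± 0.28 (edgeR adjusted p = 6.72e-06) on the log2 scale, which made 3 of 6 members, where 0.54% of 10188 genes were higher. These folds rest on 3 cells, 1 in library 1 with 111 of the group's 126 insulin UMIs and 2 in library 2 with 211 of its 225. Without cells of at least 20 insulin UMIs, 0 of the 6 passed by edgeR, with log2 fold changes of 1.00 for Ins1, 0.32 for Ins2 and 0.65 for Iapp (edgeR adjusted p = 0.468, 0.886 and 0.654), and only Ins1 had an unadjusted p below 0.05. With these cells kept, Ero1lb (2.17 ± 0.61; edgeR adjusted p = 0.0847), Slc30a8 and Sytl4 did not pass.

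Gcg cells were set against Chgb cells to ask which of the genes glucagon cells share. Of the 6 members, 4 were lower in Gcg cells, where 1.07% of 10420 genes tested were. Ins1 was lower at a log2 fold change of -4.79 ± 0.21 (edgeR adjusted p = 2.49e-41), Ins2 at -4.69 ± 0.22 (edgeR adjusted p = 9.47e-40), Sytl4 at -2.37 ± 0.43 (edgeR adjusted p = 3.16e-05) and Ero1lb at -2.02 ± 0.41 (edgeR adjusted p = 0.000378). In libraries 1 and 2 alone the fold was -3.64 and -6.15 for Ins1 and -3.64 and -5.82 for Ins2, and 1 Gcg cell of library 1 held most of its insulin, as given above. Without such cells the folds were -5.81 for Ins1, -5.77 for Ins2 and -2.99 for Sytl4 (edgeR adjusted p = 1.04e-79, 3.62e-78 and 7.48e-07). The single-library folds of Sytl4 were -1.78 and -2.87, and those of Ero1lb -1.45 and -2.45. Sytl4 and Ero1lb did not pass under higher marker thresholds (-1.81 and -1.77; edgeR adjusted p = 0.115 and 0.0554). Iapp did not pass, at -0.028 ± 0.14 with an interval of -0.29 to 0.24 (edgeR adjusted p = 0.977), an interval that leaves out a 2-fold difference in either direction. Without the insulin-rich cells outside the Chgb group, its fold was -0.24 (edgeR adjusted p = 0.936). Slc30a8 did not pass either, at 0.53 ± 0.55 with an interval of -0.54 to 1.60 (edgeR adjusted p = 0.823), which is too wide to place it.

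Insulin was close to all-or-none in Chgb cells. Of the 275 Chgb cells, 131 had 0 insulin UMIs, 32 had 1, 24 had 2 to 4, 15 had 5 to 19 and 73 had at least 20, with 5 cells at 500 or more. Cells with at least 20 are called insulin-high and those with at most 4 insulin-low here. Only 7 Chgb cells lay between 15 and 25 UMIs, close to the upper limit. Insulin-high cells made up 22 of 104 Chgb cells in library 1 (21.2%, exact binomial interval 13.8% to 30.3%) and 51 of 171 in library 2 (29.8%, 23.1% to 37.3%), intervals that overlap. The labels do not say how the sort weighed the 2 gates, which can set such shares. Ins1 stood at 18535 and 23672 CPM and Ins2 at 17935 and 24568 CPM in insulin-high Chgb cells, against 49.4 and 72.4 CPM and 87.4 and 72.4 CPM in insulin-low ones. In Cpa1 or Csf1r cells below 20 insulin UMIs, Ins1 stood at 51.8 and 17.6 CPM and Ins2 at 64.7 and 23.5 CPM. The insulin-low values were thus the higher ones in library 2 for both genes, and in library 1 for Ins2 only. A UMI of either insulin gene was found in 31.1% and 29.2% of insulin-low cells, against 31.3% and 13.4% of these Cpa1 or Csf1r cells. The limits were set on these same UMIs, so the gap in level is no test.

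**Figure D2:**
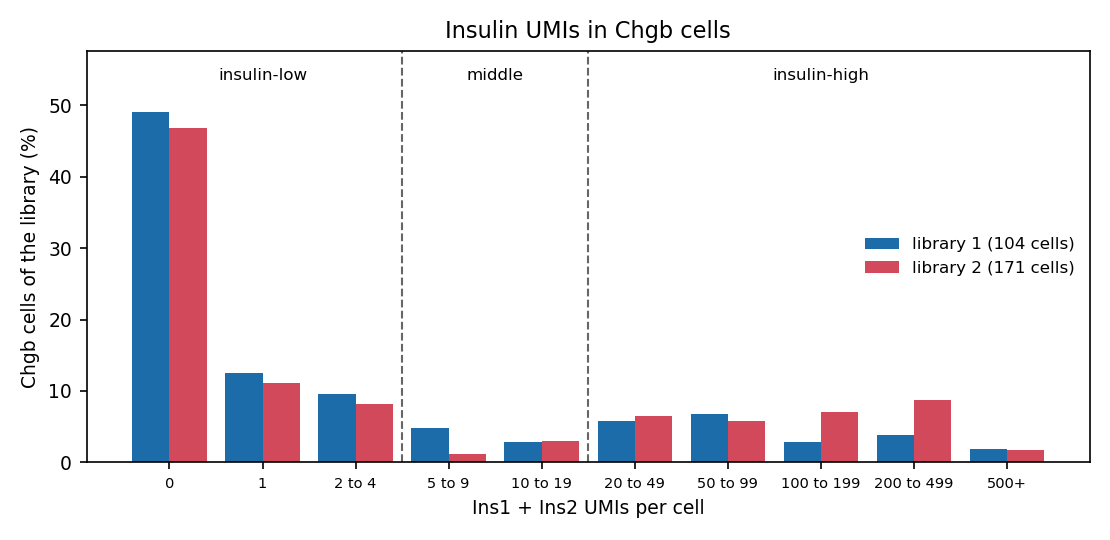
Share of Chgb cells (%, vertical axis) by their Ins1 and Ins2 UMIs summed (horizontal axis), for library 1 (104 cells) and library 2 (171 cells). Dashed lines mark the limits of insulin-low (at most 4 UMIs) and insulin-high (at least 20). In all, 131 of 275 cells are at 0 and 15 lie between the limits.

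Ins1 and Ins2 were captured in nearly equal numbers. In all Chgb cells Ins1 made up 50.4% of insulin UMIs in library 1 (exact binomial interval 48.8% to 51.9%, of 3943 UMIs) and 49.02% in library 2 (48.0% to 50.01%, of 9999 UMIs). Across the 141 insulin-high cells of any group the shares were 50.3% and 48.95%. In all 88 Chgb cells with at least 5 insulin UMIs both genes were detected. In insulin-low Chgb cells both were found in 3 and 12 cells, Ins1 alone in 7 and 11, Ins2 alone in 13 and 10, and neither in 51 and 80.

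Single cells varied around the even split by more than counting. Over 40 and 101 insulin-high cells the Ins1 share ran from 30% through a median of 50% to 66.7% in library 1, and from 26.2% through 47.3% to 73.1% in library 2. The variance of the share was 2.29 and 3.42 times what binomial sampling of each cell's insulin UMIs gives. Shares under 40% were seen in 3 and 15 cells and shares over 60% in 3 and 10. Across these cells log2 CPM of Ins1 and Ins2 correlated with Pearson's r of 0.945 and 0.905, which describes cells of 1 library each that share its depth. The even split therefore held over sums of cells, while a single cell could lean to either gene.

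Where insulin was scarce, Ins2 was somewhat ahead. Over all cells with 1 to 19 insulin UMIs, Ins1 made up 40.7% of insulin UMIs in library 1 (35.4% to 46.2%) and 45.01% of its UMIs in library 2 (40.5% to 49.5%). These lie below the insulin-high shares of 50.3% (49.1% to 51.5%) and 48.95% (48.2% to 49.7%), with intervals that are apart in library 1 and overlap in library 2. Cells with 1 to 4 insulin UMIs (41.1% and 44.5%) and with 5 to 19 (40.3% and 45.6%) gave much the same shares. Intervals take UMIs as independent, and the cell-to-cell variance above makes them too narrow. In Cpa1 or Csf1r cells below 20 insulin UMIs the share was 44.4% of 9 UMIs and 42.9% of 21. The intervals of 13.7% to 78.8% and 21.8% to 66.0% are too wide to set these apart from either.

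**Figure D3:**
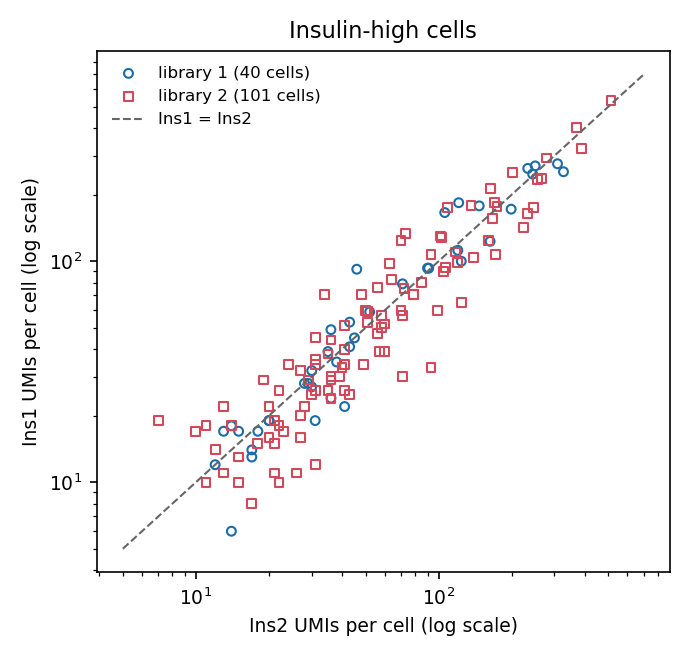
Ins1 against Ins2 UMIs (both axes logarithmic) in the 141 insulin-high cells, 40 of library 1 and 101 of library 2. The dashed line is equality. Cells lie on both sides of it, with Ins1 shares of 26.2% to 73.1%.

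Insulin-high Chgb cells were set against insulin-low ones to ask which partners go with insulin itself. Of the 4 partners, 3 were higher in insulin-high cells, where 1.71% of 9771 genes tested were. Iapp stood at 3237 and 5431 CPM in insulin-high cells against 335 and 701 CPM in insulin-low cells, a log2 fold change of 3.18 ± 0.15 (edgeR adjusted p = 3.07e-27). Sytl4 stood at 476 and 553 CPM against 57.0 and 41.8 CPM (3.5 ± 0.33; edgeR adjusted p = 1.22e-12), and Ero1lb at 333 and 494 CPM against 68.4 and 100.2 CPM (2.38 ± 0.32; edgeR adjusted p = 8.57e-08). For all 3 genes both libraries of insulin-high cells lay above both of insulin-low cells. Slc30a8 stood at 38.1 and 93.0 CPM against 11.4 and 44.5 CPM, and its log2 fold change of 1.32 ± 0.62 did not pass (interval 0.11 to 2.52; edgeR adjusted p = 0.352). The insulin-high cells of library 1 held 4 Slc30a8 UMIs in all.

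Detection in single cells was also higher in insulin-high cells for each partner. Iapp was found in 95.5% and 100% of insulin-high cells against 31.1% and 25.7% of insulin-low cells, Ero1lb in 59.1% and 74.5% against 14.9% and 17.7%, Sytl4 in 54.5% and 68.6% against 14.9% and 9.73%, and Slc30a8 in 13.6% and 29.4% against 4.05% and 8.85%. Insulin-high cells were deeper, with medians of 4789.5 and 3945 UMIs against 3403.5 and 3065. At 2000 UMIs per cell the shares were 38.1% and 50% against 10.8% and 13.6% for Ero1lb, and 42.9% and 56.5% against 9.23% and 6.82% for Sytl4. An insulin-high cell held 2.23 and 2.73 of the 4 partners on average, against 0.649 and 0.619 in an insulin-low cell. All 4 partners were found together in 1 of 22 and 10 of 51 insulin-high cells.

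Insulin-high Chgb cells were also set against Gcg cells, the other hormone group. Again 3 of the 4 partners were higher in insulin-high cells, where 1.77% of 9771 genes tested were. Iapp was higher by 1.43 ± 0.14 (edgeR adjusted p = 5.02e-12), a far smaller fold than those of Sytl4 at 3.78 ± 0.41 (edgeR adjusted p = 6.75e-11) and Ero1lb at 3.13 ± 0.41 (edgeR adjusted p = 2.65e-08). Slc30a8 did not pass, at 0.23 ± 0.62 with an interval of -0.996 to 1.45 (edgeR adjusted p = 0.937). This comparison shares its insulin-high cells with the one before, so the 2 are not independent.

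**Figure D4:**
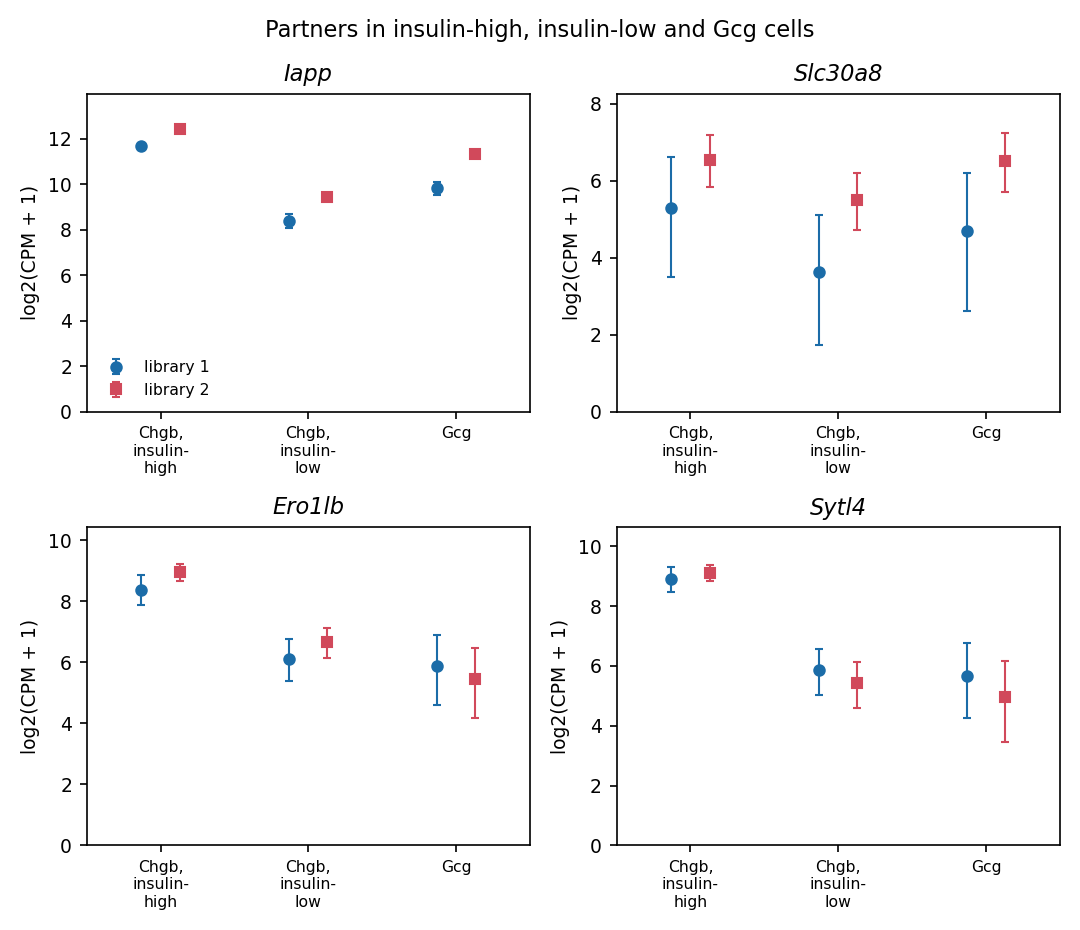
Level of the 4 partners, as log2(CPM + 1), in insulin-high Chgb, insulin-low Chgb and Gcg cells. Points are the 2 libraries, with 95% exact Poisson intervals that cover counting error only. Sytl4 and Ero1lb stand high in insulin-high cells alone among these groups, while in Gcg cells Iapp lies between both kinds of Chgb cell in each library and Slc30a8 overlaps insulin-high cells.

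Iapp was high where insulin was low in Gcg and Sst cells, and lower in Ghrl cells with few Gcg UMIs. Gcg cells with at most 4 insulin UMIs numbered 27 and 54, and held Iapp at 570 and 2578 CPM, with a UMI in 44.4% and 64.8% of cells, and insulin at 106 and 164 CPM. Cells with at least 5 UMIs of Sst, the somatostatin gene of delta cells, and few of Gcg and insulin numbered 5 and 33, and held Iapp at 808 and 2217 CPM, in 5 of 5 and 25 of 33 cells. Cells with at least 5 UMIs of Ghrl, the ghrelin gene, and few of Gcg and insulin numbered 10 and 25, and held Iapp at 164 and 411 CPM, in 4 and 11 cells. The 4 and 10 insulin-low cells with at least 5 UMIs of both Ghrl and Gcg, counted here as Gcg cells, held Iapp at 1107 and 2698 CPM. In Cpa1 or Csf1r cells below 20 insulin UMIs Iapp stood at 0 and 11.7 CPM, in 0 of 16 and 6 of 119 cells. With lower marker thresholds Gcg cells could be tested against Cpa1 or Csf1r cells, with 4.85% of 11222 genes higher. Of the 6 members 3 were higher in Gcg cells: Iapp by 5.13 ± 0.29 (edgeR adjusted p = 1.60e-16), Slc30a8 by 4.20 ± 0.97 (edgeR adjusted p = 0.00207) and Ins1 by 1.06 ± 0.35 (edgeR adjusted p = 0.0402). Slc30a8 had next to no UMIs in Cpa1 or Csf1r cells, so its fold depends on the fit's prior count. At the main thresholds it passed the count filter only through groups where it was high, as given above. Ins2 did not pass there (0.86 ± 0.32; edgeR adjusted p = 0.0727). Cells of at least 20 insulin UMIs were kept in this comparison, and it was not run without them. At the main thresholds, a single Gcg cell held 35 of the 49 Ins1 UMIs of Gcg cells in library 1. Single Cpa1 and Csf1r cells held 26 and 30 of the 65 Ins1 UMIs of Cpa1 or Csf1r cells in library 2. The Ins1 fold may thus rest on few cells.

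**Figure D5:**
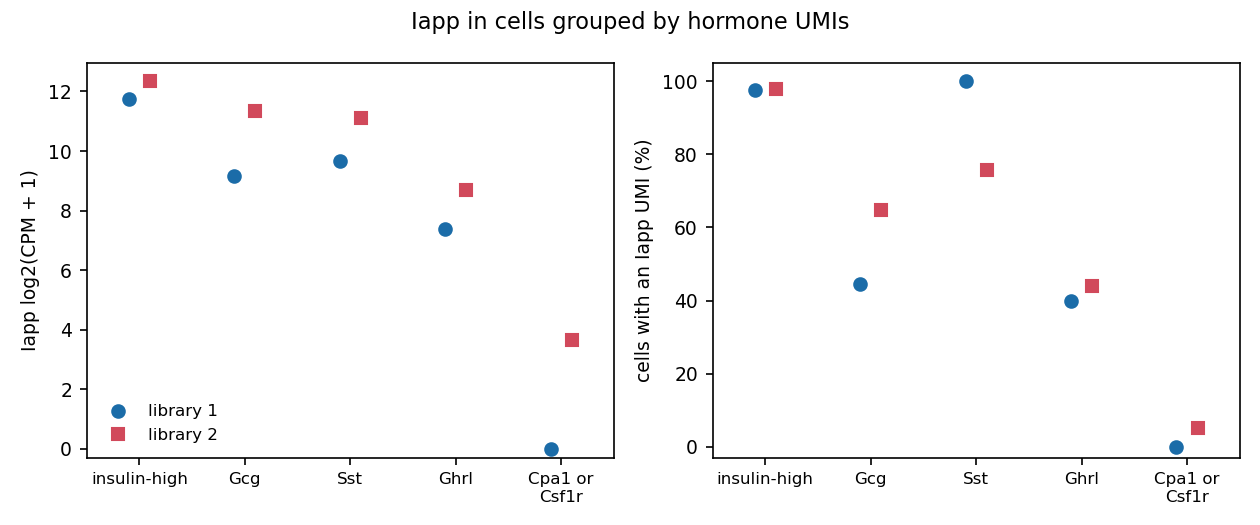
Iapp level as log2(CPM + 1) (left) and share of cells with an Iapp UMI (%, right) in insulin-high cells, in insulin-low Gcg, Sst and Ghrl cells, and in Cpa1 or Csf1r cells below 20 insulin UMIs. The Sst and Ghrl cells held fewer than 5 Gcg UMIs. Points are the 2 libraries. Iapp is detected in 44.4% to 100% of the Gcg and Sst cells and in at most 5.04% of Cpa1 or Csf1r cells.

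Within insulin-low Chgb cells Iapp was unevenly spread. Only 5 of 74 and 12 of 113 had at least 5 Iapp UMIs, and these held 60 of 88 and 222 of 252 of the Iapp UMIs. Their insulin stayed at 6 and 7 UMIs in all. Pyy, the gene of the gut and islet peptide YY, was found in 4 of 5 and 10 of 12 of them, against 32 of 69 and 40 of 101 of the insulin-low cells with fewer Iapp UMIs. Sst was found in 1 of 5 and 1 of 12 of them. The cells were picked by their Iapp UMIs, so this is a description, with no test.

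Genes that fold proteins in the ER were higher in insulin-high than in insulin-low Chgb cells. Of 29 genes listed for proinsulin folding, 18 were higher, where 1.71% of all genes tested were, and 0 lower (14 higher and 0 lower by DESeq2). Their median log2 fold change was 1.19 against -0.034 over all 9771 genes tested. Manf, a secreted ER stress factor, stood at 1323 and 1634 CPM against 475 and 454 CPM (log2 fold change 1.76 ± 0.17; edgeR adjusted p = 1.83e-12). Hspa5, the chaperone BiP, was higher by 1.67 ± 0.16 (edgeR adjusted p = 1.83e-12), Hsp90b1, the chaperone GRP94, by 1.94 ± 0.19 (edgeR adjusted p = 3.27e-12) and Sdf2l1, a partner of BiP, by 3.30 ± 0.34 (edgeR adjusted p = 1.39e-11). Against Gcg cells 16 of the 29 were higher in insulin-high cells, where 1.77% of all genes tested were, and 0 lower, with a median of 1.29. Insulin-high cells were also deeper, as given above, and the part of depth in these counts was not tested.

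The other lists changed less evenly between insulin-high and insulin-low cells. Of 16 tested transcription factor genes of the insulin gene and beta fate, 0 were higher and 4 lower (median -0.12), where 0.931% of all genes tested were lower: Pax4, at 0 and 4.89 CPM in insulin-high cells against 118 and 72.4 CPM in insulin-low cells (-4.57 ± 0.85; edgeR adjusted p = 0.000132), Rfx6 (-1.70 ± 0.45), Neurod1 (-0.99 ± 0.25) and Nkx2-2 (-0.77 ± 0.20). At an unadjusted p below 0.05, 3 were higher and 5 lower, and by DESeq2 0 of the 16 passed. Of 16 prohormone processing and granin genes, 5 were higher and 1 lower (median 0.56), where 1.71% of all genes tested were higher and 0.931% lower. The 5 included the granin gene Scg2 (2.97 ± 0.33; edgeR adjusted p = 1.81e-10) and the prohormone convertase gene Pcsk2 (0.88 ± 0.15; edgeR adjusted p = 3.60e-05). Against Neurog3 cells, 15 of those 16 were higher in Chgb cells and 0 lower, where 6.78% of all genes tested were higher. Their median was 2.44 against 0.0018 over all genes tested. Of 18 docking and fusion genes 0 were higher and 0 lower by edgeR in insulin-high cells (median 0.42), with 3 higher and 0 lower at an unadjusted p below 0.05 and 0 by DESeq2. Of 17 zinc transport genes other than Slc30a8, 0 were higher by edgeR, also at an unadjusted p below 0.05, and 1, the metallothionein gene Mt2, was lower (-1.69 ± 0.45; edgeR adjusted p = 0.0312). Of 13 genes of glucose sensing and beta cell maturation 6 were higher and 0 lower (median 0.91), where 1.71% of all genes tested were higher. The 6 included Slc2a2, the glucose transporter GLUT2, at 428 and 382 CPM against 76.0 and 50.1 CPM (2.80 ± 0.32; edgeR adjusted p = 6.02e-10). Another of the 6 was Npy, which encodes neuropeptide Y, at 47.6 and 294 CPM against 3.80 and 5.57 CPM (5.17 ± 0.74). Npy passed the count filter only once insulin-high cells formed a group of their own. Its call and its place among the 6 are thus no separate support.

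Markers of other cells were low in both kinds of Chgb cell. The 12 macrophage markers summed to 133 and 132 CPM in insulin-high cells and to 91.2 and 80.7 CPM in insulin-low cells, against 9299 and 11300 CPM in Csf1r cells. C1qa, 1 of the 3 of them that could be tested, was higher in insulin-high cells, at 66.6 and 34.3 CPM against 0 and 5.57 CPM (edgeR adjusted p = 0.0311). The 12 acinar markers summed to 162 and 235 CPM in insulin-high cells and 141 and 187 CPM in insulin-low cells, against 8242 and 14452 CPM in Cpa1 cells. Among the hormone genes, Pyy was lower in insulin-high cells (-1.32 ± 0.16; edgeR adjusted p = 1.21e-09), as was Sst (-4.65 ± 0.68; edgeR adjusted p = 8.59e-07), whose insulin-low UMIs lay mostly in a few cells. The part of these in the members' differences was not tested.

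The genes most like insulin were sought in 2 ways. Over the 10 sums of Chgb, Gcg, Neurog3, Spp1, and Cpa1 or Csf1r cells in 2 libraries, on log2(CPM + 10), Tceal6 had the highest Pearson's r with insulin, 0.958, followed by Nnat at 0.931, Ppp1r14c at 0.928, Spag1 at 0.922 and Ubn1 at 0.917, and among the members Sytl4 reached 0.922, Ero1lb 0.819, Iapp 0.712 and Slc30a8 0.568. Over single Chgb cells, on log-scaled counts, the lower r of the 2 libraries was 0.673 for Nnat, which encodes neuronatin, 0.635 for Cpne5, 0.606 for Defb9, 0.592 for Ppp1r1a, 0.562 for Tceal6, 0.554 for Olfr1442, 0.512 for Manf and 0.504 for Sdf2l1. Iapp had 0.713 there, Sytl4 0.417, Ero1lb 0.386 and Slc30a8 0.181. These points share libraries and depth, so the values are descriptions with no p. The 10 sums put all Chgb cells together, and not all genes found that way followed insulin within them. Ppp1r14c was lower in insulin-high than in insulin-low Chgb cells, at 28.6 and 14.7 CPM against 129 and 153 CPM (-2.73 ± 0.58; edgeR adjusted p = 0.00115), and Spag1 (-1.86 ± 0.69) and Ubn1 (-0.18 ± 0.38) did not pass. Tceal6 was higher, at 486 and 210.4 CPM against 3.80 and 0 CPM. Nnat stood at 4788 and 5094 CPM in insulin-high cells against 494 and 573 CPM in insulin-low cells, a log2 fold change of 3.29 ± 0.15. Tceal6 and Nnat were also picked for following insulin over these same Chgb cells. Their differences between insulin-high and insulin-low cells are therefore descriptions, with no test.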

How the data were processed

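UMI counts per gene and barcode were deposited by the authors as 2 tables, aligned to GRCm38 per the submitters' processing notes. No aligner, counter or annotation is named, and whether strand was used is not given in the sources used here. Cells with at least 1000 UMIs, 500 genes and at most 20% mitochondrial UMIs were kept, and Scrublet (scanpy 1.11.5) removed 13 and 11 doublets, which left 515 and 1070 cells. UMIs were summed per library and group with at least 20 cells in each library (105046 to 590432 UMIs per sum). The sums were fitted in edgeR 4.0.16 with its quasi-likelihood test, TMM scaling, default count filter, and terms for group and library, with 3 residual degrees of freedom (4 with the insulin split). Library is a block because each library holds both groups of a comparison. The genes that define a group were not tested, and p-values were Benjamini-Hochberg adjusted over all genes at 0.05. Each gene's spread is drawn toward one shared over genes, and an SE is the log2 fold change over the square root of F. Single-library folds use a pseudocount of 1 CPM. DESeq2 1.42.0, other scalings, filters and thresholds were tried, and the fit was tested on simulated data. Thinning left out 359 of 1585 cells. Intervals (95%) of folds are normal ones from the SE, and those of shares and levels cover counting error only. List genes named are up to 4 per list with the lowest adjusted p between insulin-high and insulin-low cells. The genes, groups and lists were chosen with earlier results of these data known.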

Additional observations from a re-analysis of the deposited data

Results flagged for a closer look

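Of the 485 cells in no group, 61 (12.6%) held at least 20 insulin UMIs, against 2 of 137 Cpa1 or Csf1r cells (1.46%). The 485 include cells that reached no marker threshold and any whose markers matched no group. The 61 were looked at again because cells in no group enter no comparison. Of the 61, 45 held 1 to 4 Chgb UMIs and 16 held 0, and their median depth was 2612 UMIs against 4172 in insulin-high Chgb cells. Their Ins1 share was 49.5% in library 1 and 49.1% in library 2. Of the 141 insulin-high cells in all, 73 were Chgb cells and the other 7 lay in other groups.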

How the results depend on the processing

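All 17 member differences that passed kept their direction under all 198 alternative values, and 195 kept their call. The 3 lost calls are Slc30a8 by DESeq2 between Chgb and Neurog3 cells, and Ero1lb and Sytl4 between Gcg and Chgb cells under higher thresholds, where 2 members passed instead of 4. All 34 single-library folds had the same sign; leaving out a library leaves no test. Of 9 differences that did not pass, 1 passed without a count filter (Ins1, Neurog3 minus Spp1, 0.80, so 2 members instead of 1), and 10 values reversed. Neurog3 minus Spp1 gave 0.26 for Ero1lb and 0.12 for Slc30a8 with higher thresholds, and -0.023 for Ins1 and -0.067 for Ins2 with a Chgb threshold of 1. Gcg minus Chgb gave Iapp 0.019 with DESeq2 size factors, 0.029 without the replicate block, 0.0087 with DESeq2, 0.41 with higher thresholds and 0.27 with thresholds in CPM. Slc30a8 between insulin-high and Gcg cells was -0.19 with lower thresholds. Without the replicate block 656 genes instead of 988 passed between Neurog3 and Spp1 cells and 105 instead of 207 between Gcg and Chgb cells, and no called member lost its call. DESeq2 called 637 genes (edgeR 1592) between Chgb and Neurog3 cells, 305 between Neurog3 and Spp1, 64 between Gcg and Chgb, 126 (258) between insulin-high and insulin-low, and 155 (290) between insulin-high and Gcg cells. Higher thresholds gave 1041 between Chgb and Neurog3 and 109 between Gcg and Chgb, while lower ones gave 99 and a Chgb threshold of 1 gave 126 for Gcg and Chgb. The Ins1 share in Chgb cells was 48.5% with higher thresholds and 48.8% with CPM thresholds in library 1, and 50.2% with higher ones in library 2. The cause was not tested. The insulin split under higher, CPM or wider insulin limits left under 20 cells in library 1 and was not run.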

Other observations

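Cells with at least 5 UMIs of both Ghrl and Gcg and few of insulin numbered 4 and 10. They held Iapp at 1107 and 2698 CPM, in 3 of 4 and 8 of 10 cells, and insulin at 0 and 36.5 CPM.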
